A study of Mus musculus with 24 samples.

Results

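The comparison described here follows the irradiated mammary gland of the BALB/c mouse from 4 to 8 weeks after a single low dose of X-rays. Its members were taken from the sample labels alone, namely strain BALB/c, exposure to 10 cGy (low-dose ionizing radiation, LDIR) and collection at 4 or at 8 weeks, which gave 3 and 3 arrays, 6 of the 24 arrays in the series. The animals were female BALB/c mice from the Jackson Laboratory, exposed over the whole body at 8 to 9 weeks of age, so that they were 12 to 13 weeks old at the first collection and 16 to 17 weeks old at the second. Each array held the total RNA of the mammary tissue of 1 mouse. Sham BALB/c mice of the same ages and weeks, given no dose, filled another 6 arrays and gave the time change without exposure. The other 12 arrays, of BALB/c mice at 2 weeks and of SPRET/EiJ mice at 4 weeks, did not enter the comparison.

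The mammary gland is a fat pad that holds a branching epithelium of an inner luminal layer, which responds to estrogen and progesterone and later makes milk, and an outer basal layer of contractile myoepithelial cells. Its resident macrophages, lymphocytes, vessels and fibroblasts also contribute RNA to a whole-gland extract, and the epithelium grows and regresses with each estrous cycle. BALB/c is an inbred strain with reduced activity of the DNA-break repair kinase DNA-PKcs, encoded by Prkdc, and is more prone than some other strains to mammary cancer after irradiation. In whole tissue, fewer cells of a type and less RNA per cell cannot be told apart.

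Levels below are log2 signals relative to the 75th percentile of the probes on the same array, so that a level of 0 is the 75th percentile itself, and a difference is the 8-week mean minus the 4-week mean. A gene is said to have risen or fallen where limma gave an unadjusted p under 0.05 and the change was over 1.5-fold, the thresholds of the study for tests within a strain. Adjusted p-values are Benjamini-Hochberg values over all 55680 probes tested. Each mouse was a separate sample, but nothing states that the mice of a group came from separate cages or litters, so p-values measure the spread between these mice. With 3 arrays against 3, an exact permutation test of a single gene could not give a two-sided p below 0.1.

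The arrays carried the markers of the tissue. Krt8, a keratin of luminal epithelium, had levels of 5.6, 4.37 and 6.52 at 4 weeks and 5.64, 4.49 and 6.19 at 8 weeks, and the epidermal keratin Krt1 was not well above background on any of the 6 arrays (highest level -5.76). Other genes of cornified epidermis were detected, since 8 of 19 were well above background on all 6 arrays. Among these, Sprr1a was at 0.24, -3.10 and 1.41 at 4 weeks. Each of the 3 arrays of 8 weeks has to be described singly before the results. Array A was hybridised on the slide that held the 3 arrays of 4 weeks, whereas B and C were on another slide, and all slides were scanned on 1 day. Array B stood apart from the other 5 arrays, with correlations over all probes of 0.949 to 0.960, against 0.985 to 0.989 among the 4-week arrays.

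Array B carried lymphoid RNA. The summed linear level of the 21 T lymphocyte markers was 21.1, 19.2 and 23.5 on the 4-week arrays, 18.5 and 20.3 on 8-week arrays A and C, and 363 on B. The B lymphocyte sum showed the same array apart, at 9.03, 10.8 and 8.97 at 4 weeks, 10.4 and 9.28 on A and C, and 210.0 on B. Arrays A and C in turn carried skeletal muscle RNA, with summed muscle levels of 294 and 1347, against 14.4 on B and 12.8, 20.1 and 18.2 at 4 weeks. Some muscle genes were also higher on B than at 4 weeks. Sham mice showed both at 8 weeks, where array A had a T lymphocyte sum of 273 and the muscle sums were 236, 76.0 and 257. Median differences of each list on each 8-week array are shown in the plot of gene lists by array, and the counts of gene lists are also given without array B and with slide as a block, as numbers of members past the thresholds in that fit.

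**Figure D1:**
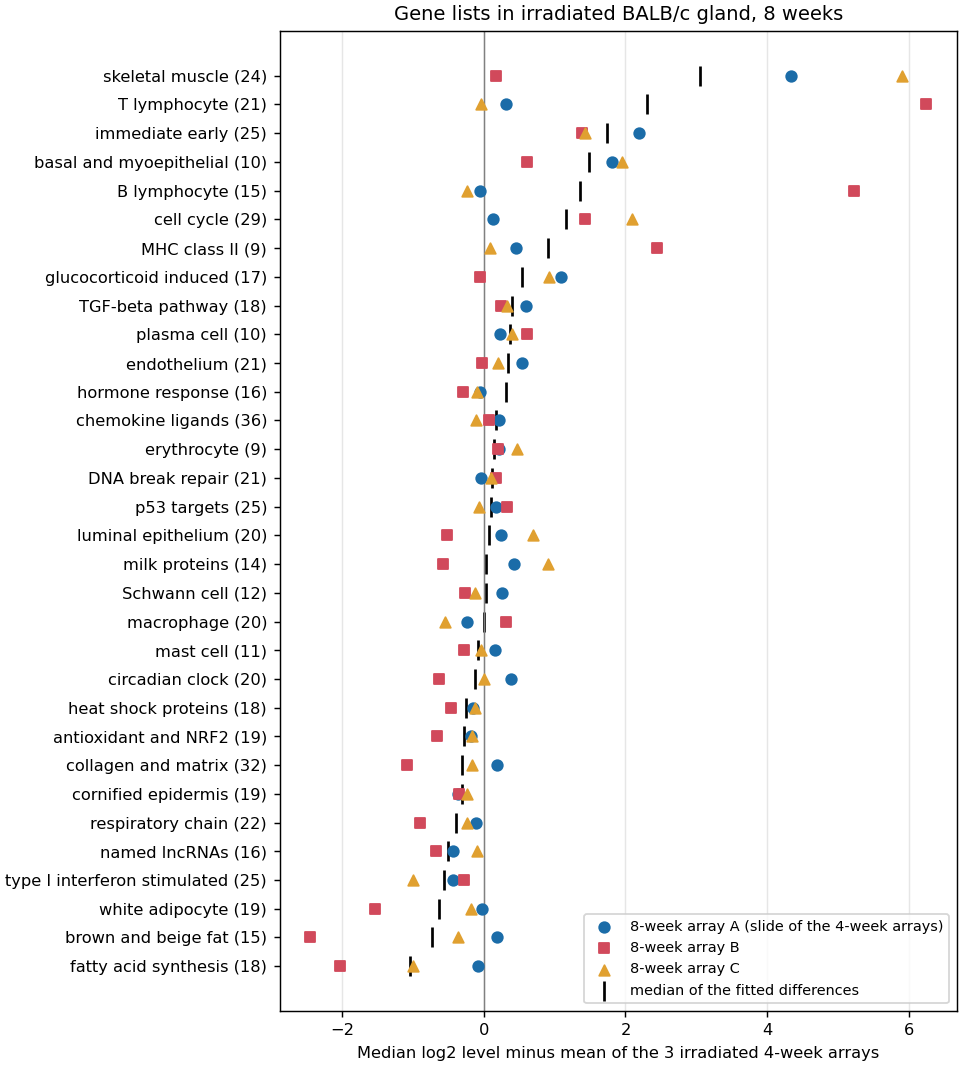
Median log2 level of 32 gene lists on each 8-week irradiated array minus the mean of the 3 irradiated 4-week arrays (horizontal axis, with the number of genes measured in brackets), with array A as circles, B as squares and C as triangles, and a bar at the median of the fitted differences. The immediate early list lay at 2.19, 1.39 and 1.43 on the 3 arrays, whereas the T lymphocyte list was high on B alone (6.24) and the muscle list on A and C (4.34 and 5.90).

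More probes fell than rose between 4 and 8 weeks, a balance that for coding probes depended on the scaling. Of the 55680 probes tested, 12124 passed the thresholds (21.8%), 2107 of them higher at 8 weeks (3.78%) and 10017 lower (18%). Long noncoding RNA (lncRNA) probes accounted for much of this, since 4829 of 16251 passed (29.7%), 225 higher (1.38%) and 4604 lower (28.3%), against 7295 of 39429 coding RNA probes (18.5%), 1882 higher (4.77%) and 5413 lower (13.7%). After adjustment 296 probes remained (0.532%), 42 of them higher. Over the 22328 coding genes with a symbol, 1167 rose (5.23%) and 2519 fell (11.3%), and these shares are the background for each gene group below. After quantile normalization 1659 genes rose and 1299 fell, and 2858 coding probes were higher and 2837 lower, so that the excess of falls among coding genes was not kept. Among lncRNA probes 483 were then higher and 2200 lower. The groups did not overlap for 28.3% of the genes.

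The split between higher and lower probes depended on scaling. The median difference of all probes was -0.24 with the 75th percentile, -0.32 after normexp background correction and -0.04 after quantile normalization, and higher probes made up 17.4% of those past the thresholds in the first case and 39.9% in the last. With slide as a block, so that array A carried the contrast, 3229 coding and 2273 lncRNA probes passed, and the adjusted count was 0 (5502 probes at an unadjusted p under 0.05). All 12124 probes kept their sign under that block, but they had been selected on a difference that includes array A, so that this is no independent support. Medians of lists are therefore also given relative to the median of all genes, -0.13. Of the 22328 genes, 1598 rose and 2072 fell without array B, and 700 rose and 801 fell with slide as a block. These numbers are the background for the list counts in those fits.

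Immediate early genes were higher at 8 weeks. They encode transcription factors and feedback regulators that cells switch on within minutes of a stimulus. Of 25 measured, 16 rose and none fell, with a median difference of 1.75 (1.88 relative to all genes) and 22 of 25 above 0. Nr4a1, an orphan nuclear receptor, had levels of 1.58, 0.67 and 1.46 at 4 weeks and 5.29, 4.05 and 4.96 at 8 weeks. The difference of 3.53 (SE 0.40), 11.6-fold, had an adjusted p of 0.0456, and the groups did not overlap.

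Among these were genes for the subunits of the transcription factor AP-1. Fos was at 0.42, -0.61 and 1.38 at 4 weeks and at 4.92, 3.14 and 3.44 at 8 weeks, a rise of 3.43 (SE 0.65, adjusted p 0.0667). Fosb, another Fos family member, was at -1.47, -1.82 and -1.24 and then at 3.41, 0.59 and 1.30, a rise of 3.28 (SE 0.70). Its 8-week array A was the highest, as it was for Fos, and every 8-week level lay above every 4-week level. Jun rose by 1.22 and Junb by 2.20, whereas Jund differed by 0.50, under the fold threshold, and Fosl1 by -0.54.

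Atf3, a stress-induced repressor of the same leucine zipper class, was at -1.64, -1.90 and -1.25 at 4 weeks and at 3.42, 0.57 and 1.26 at 8 weeks, a rise of 3.34 (SE 0.71). The zinc finger gene Egr1 was high already at 4 weeks, at 2.90, 2.06 and 3.94, and reached 5.73, 4.46 and 4.28, a rise of 1.86. Ier2 rose by 2.65, from -1.73, -2.71 and -1.45 to 1.14, 0.55 and 0.35. The groups did not overlap for any of these 3 genes. Other members that rose were Dusp1, a phosphatase of MAP kinases (1.92), Zfp36, which destabilises cytokine mRNA (2.06), and the antiproliferative gene Btg2 (2.26). Egr2 (0.51), Egr3 (-0.23), Nr4a2 (-0.18), Klf4 (0.35), Myc (0.78, unadjusted p 0.062) and Gadd45b (0.58) did not pass, and Nr4a3 was not well above background.

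**Figure D2:**
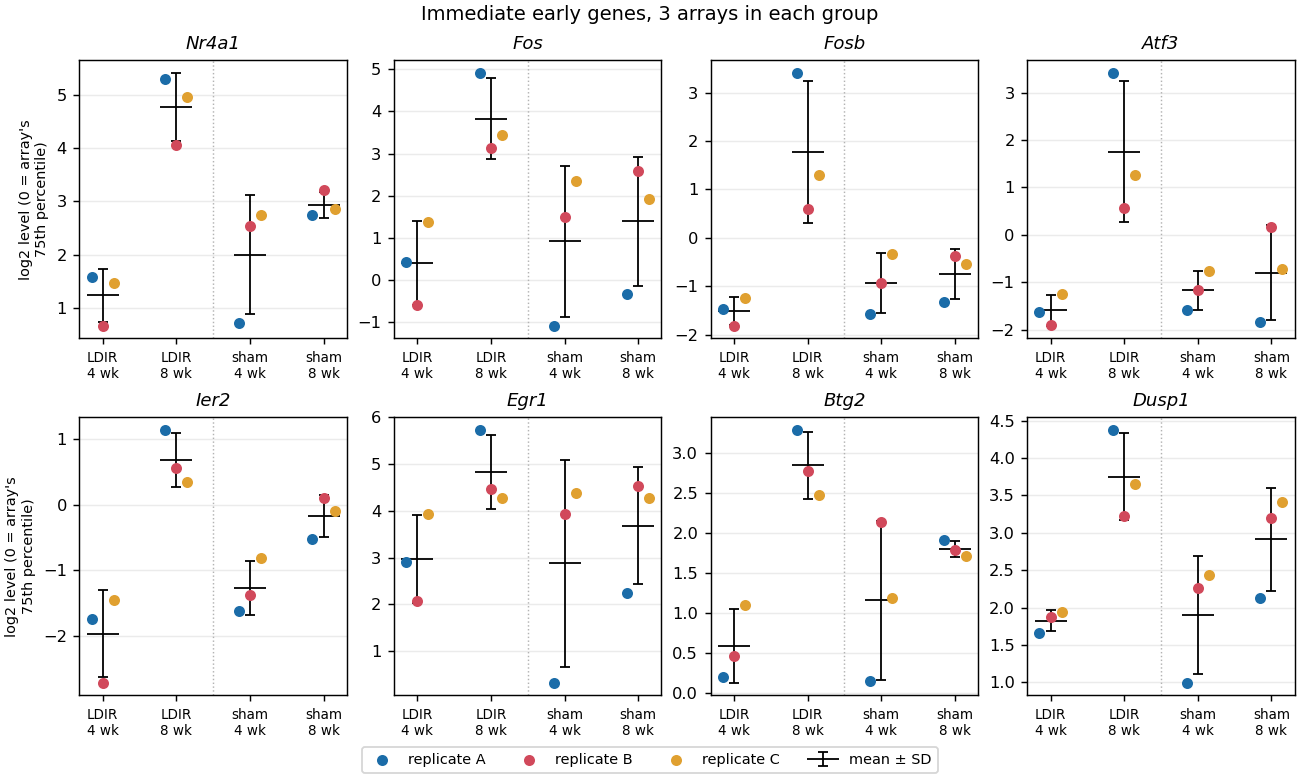
Log2 levels (vertical axis, 0 at the array's 75th percentile) of 8 immediate early genes in irradiated (LDIR) and sham BALB/c mammary tissues at 4 and 8 weeks, 1 point per array and mean ± SD of 3. Nr4a1 was between 0.67 and 1.58 on the irradiated 4-week arrays and between 4.05 and 5.29 at 8 weeks, whereas its sham levels at 8 weeks, 2.75 to 3.21, lay near those of 2 sham 4-week arrays, 2.54 and 2.75.

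The list median was above 1 on each of the 8-week arrays. Without array B, 17 of 25 rose and with slide as a block 16 did, 16 and 15 of them from the original 16. Normexp gave 17 and quantile normalization 18. In sham mice the median difference of the list was 0.65, and 5 genes rose and none fell, where 6.76% of all genes rose and 7.3% fell in sham mice. The difference between both time changes passed the thresholds for 7 genes, all higher in irradiated mice (Fosb, Jun, Jund, Ier2, Atf3, Nr4a1 and Btg2), where 0.582% of all genes did so upward. For Nr4a1 it was 2.60 (unadjusted p 0.00556), with sham levels of 0.73, 2.54 and 2.75 at 4 weeks and 2.75, 3.21 and 2.86 at 8 weeks. For Fos it was 2.97 (unadjusted p 0.0609), and sham Fos spanned -1.09 to 2.36 at 4 weeks and -0.34 to 2.58 at 8 weeks. Under the slide block 10 genes passed, 6 of them among the 7, where 162 of all 22328 genes passed upward. No probe on the array had an adjusted p under 0.05 for this difference, while 2339 had an unadjusted p under 0.05 (4.2%).

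The promoters of the 4 genes whose levels were given first are printed because these genes moved together. They are RefSeq sequences on build GRCm38.p6, the 250 bases before the transcript start, read 5′ to 3′ on the gene's strand, with capitals on the half-site TGACG, or its complement CGTCA, of the cyclic AMP response element that CREB and ATF family factors bind. Fos lies on the plus strand at chr12:85473640-85473889, Fosb on the minus strand at chr7:19310046-19310295, Nr4a1 on the plus strand at chr15:101266596-101266845 and Atf3 on the minus strand at chr1:191183334-191183583.
Fos: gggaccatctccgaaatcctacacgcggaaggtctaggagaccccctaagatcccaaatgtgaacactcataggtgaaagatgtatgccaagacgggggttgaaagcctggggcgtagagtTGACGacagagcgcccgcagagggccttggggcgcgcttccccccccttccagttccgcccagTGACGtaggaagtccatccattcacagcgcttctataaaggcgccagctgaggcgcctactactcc
Fosb: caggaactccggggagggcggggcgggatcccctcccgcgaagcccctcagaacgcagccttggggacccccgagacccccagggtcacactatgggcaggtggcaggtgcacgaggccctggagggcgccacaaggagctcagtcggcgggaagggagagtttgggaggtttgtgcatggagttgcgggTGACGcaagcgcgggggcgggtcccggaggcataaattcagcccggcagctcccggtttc
Nr4a1: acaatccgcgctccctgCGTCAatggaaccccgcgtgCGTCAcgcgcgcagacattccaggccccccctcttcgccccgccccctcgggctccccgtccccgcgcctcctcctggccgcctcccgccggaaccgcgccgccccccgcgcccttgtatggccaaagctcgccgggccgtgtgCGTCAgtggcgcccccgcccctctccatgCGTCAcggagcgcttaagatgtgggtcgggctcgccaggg
Atf3: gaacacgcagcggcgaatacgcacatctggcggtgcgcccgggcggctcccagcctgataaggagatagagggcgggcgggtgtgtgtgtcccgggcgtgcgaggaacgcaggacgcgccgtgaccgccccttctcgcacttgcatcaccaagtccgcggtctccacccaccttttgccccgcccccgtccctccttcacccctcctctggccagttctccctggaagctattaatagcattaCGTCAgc
Nr4a1 had 4 such half-sites, at -233, -213, -69 and -40 from its start, Fos had 2, at -129 and -66, and Fosb and Atf3 had 1 each, at -60 and -7. Promoters of 19 of the immediate early genes could be matched, and 13 held the half-site on either strand, against 19.8% of the 27025 genes with a promoter of this length in the table (17.8% of 32851 promoters). Among the 13 matched genes that rose it was 9, and Egr2, Klf4 and Nr4a2, which did not pass, held it too. Nr4a3, which was not well above background, also held it. The half-site contains the pair CG, and the 4 printed promoters were 58.4% to 74.4% G and C. The background genes were not matched for base content, so that their share is not a like comparison. The full element, TGACG followed by TCA, which contains the half-site, was in 3 of 19, those of Btg2, Dusp1 and Maff, against 1.77% of genes. Of 3 other motifs searched on both strands, the AP-1 motif TGANTCA was in 0 of 19 (7.82% of genes), the CArG box in 2 (1.62%) and the TATA box TATAAA in 4 (14.3%). These are letter matches and not evidence of binding.

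Genes of the basal and myoepithelial layer were among those that rose. Of 10 measured, 7 rose and none fell, with a median difference of 1.48 (1.61 relative to all genes). Krt14, the type I keratin of basal cells, was at 0.23, -0.18 and 0.20 at 4 weeks and at 2.40, 1.1 and 2.55 at 8 weeks, a rise of 1.93. Acta2, the smooth muscle actin by which myoepithelial cells contract, was at 4.34, 3.93 and 3.59 and then at 6.41, 4.78 and 6.56, a rise of 1.97. In both genes array B was the lowest of the 8-week arrays and still above all 4-week arrays.

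The other risen members were Krt17 (2.55, SE 0.46, adjusted p 0.0646), Krt5 (1.98), the actin-binding protein Cnn1 (1.96), the myosin kinase Mylk (1.02) and Tagln (0.72). Myh11 differed by 0.98 (unadjusted p 0.052), the oxytocin receptor Oxtr by 0.28 and Trp63, the transcription factor that defines basal cells, by -0.22. Without array B 8 of 10 rose, and with slide as a block 6, 5 of them among the 7. Of 20 luminal genes, 1 rose (Muc1, 0.96) and none fell, with a median of 0.08 (0.21 relative to all genes), and 5 rose without array B and 2 with the block. In sham mice 1 of the 10 basal genes rose, the median difference was 0.92 and Krt14 went from 0.39, 1.39 and 1.25 to 0.29, 2.60 and 2.19. No basal gene passed the test of the difference between the time changes. The summed level of the basal list was 223, 97.4 and 257 on 8-week arrays A, B and C and 66.5 to 87.4 at 4 weeks. Of the 8-week arrays, the 2 with high basal sums also carried muscle RNA, but sham 8-week array B had a basal sum of 270 with a muscle sum of 76.0, and sham 8-week array A one of 70.7 with a muscle sum of 236. The part of muscle tissue in the basal levels was not tested.

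Hormone response genes moved in both directions, 3 up and 4 down of 16, with a median of 0.31 (0.44 relative to all genes). This median was not stable. On 8-week arrays A, B and C singly the list median was -0.06, -0.30 and -0.09. It was -0.13 without array B and -0.06 with slide as a block. Areg encodes amphiregulin, the EGF receptor ligand through which estrogen drives ductal growth. Its levels were 4.48, 1.67 and 4.32 at 4 weeks and -0.54, -0.04 and -0.32 at 8 weeks, a fall of 13.8-fold (difference -3.79, SE 0.74, adjusted p 0.0708). It was the largest fitted fall among coding genes past the thresholds, above background on all 6 arrays and with groups that did not overlap. Areg also fell in sham mice, from 3.91, 4.29 and 5.13 to 0.86, 2.38 and 2.56 (difference -2.51), and all 3 irradiated 8-week levels were below the sham ones. The time changes of Areg differed by -1.28, which did not pass (unadjusted p 0.237 by limma).

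Pgr, the progesterone receptor, was at 1.68, 0.30 and 1.21 at 4 weeks and at -0.15, -0.91 and -0.54 at 8 weeks, a fall of 1.60 on the log2 scale. Prlr, the prolactin receptor, went from 5.48, 4.37 and 5.06 to 3.96, 3.33 and 4.28 and fell by 1.11. For both genes the groups did not overlap, and the sham differences were -0.67 and -0.89. Their time changes differed from sham by -0.93 and -0.22, and neither passed (unadjusted p 0.161 and 0.646 by limma). The estrogen target Greb1 fell by 0.80. Esr1, the estrogen receptor itself, differed by -1.05 (unadjusted p 0.057) and Wnt4, a paracrine signal downstream of progesterone, by -0.61, and neither passed.

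The 3 hormone response genes that rose were Ramp3 (1.72), a receptor activity modifying protein, the cyclin Ccnd1 (1.44) and the transcriptional coactivator Cited1 (1.5). Cited1 differed by -0.79 in sham mice. Without array B 5 genes of the list rose and 2 fell. With slide as a block Ramp3, Ccnd1 and Cited1 did not pass, 1 other gene rose and 1 of the 4 fell, and the difference of Pgr was -1.22 with an unadjusted p of 0.079. Of 14 milk protein genes, with a median of 0.03 (0.16 relative to all genes), Csn1s1 (3.26) and Olah (2.61) rose and Wap fell (-3.29, and -1.07 at its other probe). Without array B 4 rose and none fell, and with the slide block none passed.

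**Figure D3:**
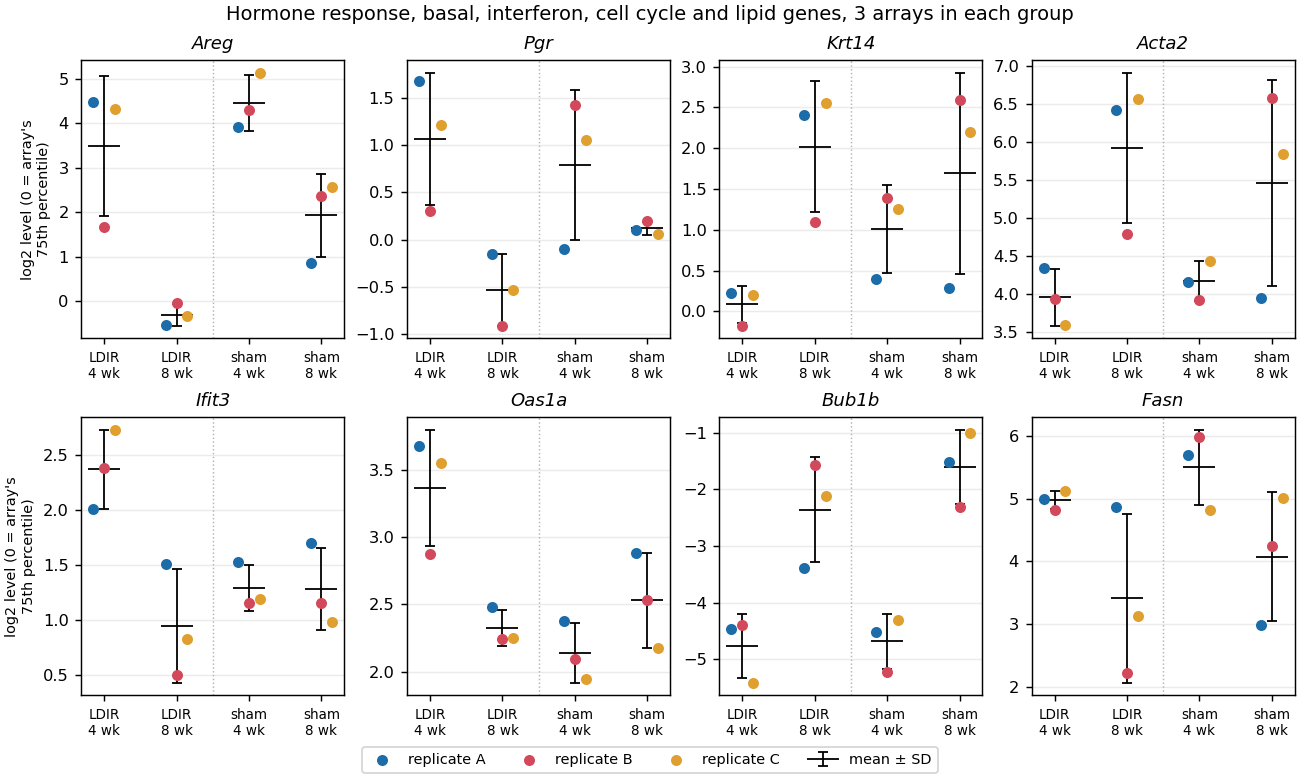
Log2 levels (vertical axis, 0 at the array's 75th percentile) of 8 genes of hormone response, the basal layer, interferon response, cell cycle and lipid synthesis in irradiated (LDIR) and sham BALB/c mammary tissues at 4 and 8 weeks, 1 point per array and mean ± SD of 3. Areg was lower at 8 weeks in irradiated and sham mice, Oas1a fell in irradiated mice (2.87 to 3.68 at 4 weeks, 2.24 to 2.48 at 8 weeks) with sham levels of 1.94 to 2.38 and 2.17 to 2.88, and Bub1b was higher at 8 weeks in both.

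Genes induced by type I interferon, the cytokine of antiviral defence, were lower at 8 weeks. Of 25 measured, 7 fell and none rose, with a median difference of -0.57 (-0.44 relative to all genes). Oas1a, which makes the messenger that activates RNase L, was at 3.68, 2.87 and 3.55 at 4 weeks and at 2.48, 2.24 and 2.25 at 8 weeks, a fall of 1.04 on the log2 scale. Ifit3, an RNA-sensing effector, was at 2.01, 2.38 and 2.72 and then at 1.51, 0.50 and 0.83, a fall of 1.43. Neither gene overlapped between the weeks. Ifit1 (-1.57), Oasl2 (-1.06), Mx2 (-0.90), Oas2 (-0.83) and Rtp4 (-0.72) also fell.

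Sham mice had lower values than irradiated mice at 4 weeks, a difference that was not tested here. Their Oas1a levels were 2.38, 2.09 and 1.94 at 4 weeks and 2.88, 2.54 and 2.17 at 8 weeks, a difference of 0.39, and their Ifit3 levels were 1.53, 1.15 and 1.19 and then 1.69, 1.16 and 0.98. The irradiated 8-week levels lay within the sham range for Oas1a, and 2 of 3 lay below it for Ifit3. Over the whole list, the sham 4-week arrays had medians of -0.71, -0.70 and -1.10 relative to the irradiated 4-week mean. The difference between the time changes was lower in irradiated mice for 7 of the 25 genes (Ifit3, Oas1a, Oas2, Oas3, Oasl1, Oasl2 and Irf7), where 3.05% of all genes passed downward. Without array B 10 genes fell in irradiated mice, 6 of them among the 7, and 7 passed the test of the difference. With slide as a block the median was -0.44 and no gene of the list fell, and 1 passed the test of the difference. Over all 22328 genes 801 fell with that block and 126 passed the test downward, against 2072 and 614 without array B.

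Macrophage genes included some that were lower at 8 weeks. Of 20 measured, 5 fell and none rose, but the median difference was near 0, at -0.00 (0.13 relative to all genes). Mrc1, the mannose receptor of tissue-resident macrophages, was at 3.68, 3.33 and 3.11 at 4 weeks and at 2.81, 2.19 and 2.14 at 8 weeks, a fall of 0.99. C1qc, a complement subunit made by macrophages, was at 4.18, 3.57 and 3.62 and then at 3.20, 3.04 and 3.03, a fall of 0.70, against a sham difference of 0.58. The groups were apart in both genes. The Fc receptor Fcgr1 (-0.97), the hemoglobin scavenger receptor Cd163 (-1.02) and Adgre1 (-0.60) fell as well. In sham mice 6 macrophage genes rose and none fell, with a median of 0.84, and 6 genes passed the test of the difference downward (Cd68, Mrc1, Fcgr1, C1qa, C1qb and C1qc). That count was 10 without array B and 0 with slide as a block, where 614 and 126 of all 22328 genes passed downward. In irradiated mice alone, 1 macrophage gene rose and 4 fell without array B, and 1 rose and none fell with the block. The summed level of the list was 206, 181 and 156 at 4 weeks and 166, 365 and 122 at 8 weeks, highest on the lymphoid array B.

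Chemokine ligands, which recruit leukocytes, split into 5 that rose and 7 that fell of 36, with a median of 0.18 (0.31 relative to all genes). Those that fell were Ccl6 (-1.16), Ccl8 (-1.18), Ccl9 (-1.12), Ccl24 (-1.13), Ccl25 (-0.81), Ccl28 (-1.47) and Pf4 (-1.11). Ccl9 was at 3.48, 2.83 and 3.22 at 4 weeks and at 2.39, 1.73 and 2.04 at 8 weeks, with a sham difference of 0.66 and a difference between the time changes of -1.79. Ccl8 was at 4.80, 3.38 and 4.17 and then at 3.19, 2.99 and 2.62, with a sham difference of 1.24, so that the time changes differed by -2.42 (unadjusted p 0.00063). In both genes every 8-week level was below every 4-week level. The ligands that rose were Ccl3 (2.06), Ccl4 (1.28), Ccl17 (1.61), Cxcl16 (1.29) and Cxcl2, which was not well above background at 4 weeks and at least 2.13-fold higher at 8 weeks, though it differed by 0.030 after normexp. Without array B 8 rose and 7 fell. Under the slide block 4 rose, 3 of them among the 5 named, and 1 fell, which was none of the 7 named.

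Mitotic genes were higher at 8 weeks in irradiated and in sham mice. Of 29 cell cycle genes, 11 rose and 1 fell (Tyms, -0.60), with a median of 1.16 (1.29 relative to all genes). Bub1b, a kinase of the spindle checkpoint, was at -4.47, -4.40 and -5.41 at 4 weeks and at -3.38, -1.57 and -2.12 at 8 weeks, a rise of 2.40. Its sham levels went from -4.52, -5.22 and -4.30 to -1.52, -2.31 and -1.0, a rise of 3.07. Ccnb2 and Cenpa, a mitotic cyclin and the centromeric histone, each rose by 1.56. Mki67, the common proliferation marker, was at 0.47, 0.25 and -0.67 and then at 0.15, 1.01 and 1.99, which did not pass (1.03, unadjusted p 0.094). In sham mice 25 of 29 rose with a median of 1.86, and no gene of the list passed the test of the difference between the time changes, while 4 did so downward with slide as a block and 1 without array B. Array A differed from B and C here, since its list median was 0.13 against 1.43 and 2.09, and with slide as a block 1 gene rose and none fell. Without array B 8 rose and 1 fell.

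Targets of p53, the transcription factor of the DNA damage response, included 8 that rose and none that fell of 25, although the median was 0.10 (0.23 relative to all genes). Without array B 6 rose and with slide as a block 3, all among the 8. Cdkn1a, the p21 inhibitor of cell division, was at -2.01, -1.69 and -1.65 at 4 weeks and at 0.00, -0.56 and -0.42 at 8 weeks, a rise of 1.46 (adjusted p 0.0571). The sham rise was 1.89, from -1.77, -1.61 and -2.18 to 0.26, -0.33 and 0.20. The 2 other Cdkn1a probes differed by -0.52 and 1.23 in irradiated mice, so that 1 of them went the other way. The other targets that rose were Pmaip1 (2.07), Gtse1 (1.52), Perp (1.11), Bax (1.05), Gdf15 (0.86), Tnfrsf10b (0.71) and Btg2, which is also on the immediate early list. Mdm2, the ligase that degrades p53, differed by 0.06. In sham mice 2 of the 25 rose and none fell, with a list median of -0.03, and Gtse1 rose by 2.20. The difference between the time changes passed upward for 1 gene of the list and downward for none.

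Of 21 genes of DNA break repair, 1 rose and 3 fell. Lig4, the ligase of end joining, fell by 0.65 and the checkpoint kinase Chek1 by 0.63, and the histone variant gene H2ax rose by 0.82. Prkdc, which encodes DNA-PKcs, was at -0.95, -0.69 and -0.96 and then at -1.07, -0.55 and -0.95, a difference of 0.01. The median of the list was 0.12 (0.25 relative to all genes). Without array B 1 gene rose and 1 fell, and with slide as a block none rose and 1 fell.

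Glucocorticoid-induced genes rose in part, 6 up and 1 down of 17, with a median of 0.55 (0.68 relative to all genes). Ddit4, an inhibitor of mTORC1 signalling that stress hormones induce, was at 3.13, 3.55 and 3.75 at 4 weeks and at 6.04, 6.48 and 6.05 at 8 weeks. The rise was 2.72 (SE 0.25, adjusted p 0.0456), and that of sham mice 3.27. Errfi1 (2.07), Lcn2 (1.35), Cebpd (1.08) and the kinase gene Sgk1 (0.99) rose, as did Dusp1, and Zbtb16 fell by 1.03. Fkbp5, a chaperone of the glucocorticoid receptor and one of its targets, differed by 0.02 in irradiated mice, at 1.97, 1.92 and 2.02 and then 1.59, 2.56 and 1.82, but by 1.81 in sham mice. The time changes of Fkbp5 differed by -1.79 (unadjusted p 0.0013), and Zbtb16 and Hif3a passed this test in the same direction. On array B the list median was -0.05, and without it 10 genes rose and 1 fell, whereas with slide as a block 6 rose and none fell.

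The TGF-beta pathway, which controls matrix and growth arrest, had 5 of 18 genes higher and none lower, with a median of 0.40 (0.53 relative to all genes). Ccn2, the connective tissue growth factor, was at 0.79, 1.73 and 0.95 at 4 weeks and at 4.85, 3.21 and 3.93 at 8 weeks, a rise of 2.85, against 1.45 in sham mice. Tgfb1, a ligand gene (1.28), the latent binding protein gene Ltbp2 (1.27) and Skil (0.72) also rose. Without array B 5 of the 18 rose, 4 of them among the original 5, and under the slide block 3 did.

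Collagen and matrix genes had 1 rise and 4 falls of 32, with a median of -0.31 (-0.18 relative to all genes). Fmod, fibromodulin, a small proteoglycan that binds collagen, was at -2.60, -2.35 and -2.83 at 4 weeks and at -0.48, 0.50 and -0.46 at 8 weeks, a rise of 2.45 (adjusted p 0.0471). Col15a1, a basement membrane collagen, was at 0.18, -0.05 and -0.30 and then at -2.07, -3.49 and -1.91, a fall of 2.44. The 2 other Col15a1 probes differed by only -0.79 and -0.52. Dcn (-1.07), Fn1 (-0.87) and Lum (-0.85) fell too. Array B had the lowest list median, -1.09, and without it 3 genes rose and 2 fell, whereas the slide block gave 2 rises and 1 fall.

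Endothelial genes had 5 rises and 1 fall of 21, with a median of 0.34 (0.47 relative to all genes). Without array B 6 rose and 2 fell, and with slide as a block 4 rose and 1 fell. Cldn5, the tight junction protein of vessels, was at 1.79, 2.42 and 2.31 at 4 weeks and at 4.34, 2.82 and 3.87 at 8 weeks, a rise of 1.5, with a sham difference of 0.19 and a difference between the time changes of 1.31. Flt4 (0.85), Plvap (0.69), Eng (0.68) and Egfl7 (0.60) rose, and Kdr, the main VEGF receptor, fell by 0.85. Apold1, an early response gene of endothelium that was not on a list, was among the 8 largest rises. Its levels were -2.09, -2.78 and -1.91 at 4 weeks and 2.26, -0.03 and 2.04 at 8 weeks (difference 3.68, adjusted p 0.0609), and the sham difference was 1.42.

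By list median lipid genes were lowest on array B, and fatty acid synthesis genes were also lower on array C than on A. Fasn, the fatty acid synthase, was at 4.99, 4.83 and 5.12 at 4 weeks and at 4.87, 2.22 and 3.14 at 8 weeks, with array A inside the 4-week spread. Its fall of 1.57 passed, as did those of Acaca (1.43) and Me1 (1.82), and the desaturase gene Fads2 rose by 1.69, so that 1 of 18 fatty acid synthesis genes rose and 3 fell (2 and 0 without array B, 1 and 0 with the slide block). The other Fads2 probe differed by 0.32. The list median was -0.09, -2.03 and -1.0 on arrays A, B and C. Without array B the difference of Fasn was -0.98 (unadjusted p 0.11) and with slide as a block -0.11. Of 19 white adipocyte genes 4 fell (Fabp4, Cfd, Car3 and Acvr1c), and of these 1 did so without array B and none with the slide block. Adipoq, adiponectin, was at 7.08, 8.27 and 7.86 and then at 7.77, 6.46 and 7.91, a difference of -0.36. In sham mice 5 of the fatty acid synthesis genes and 9 of the white adipocyte genes fell and none rose.

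Skeletal muscle genes passed in 9 of 24 upward and 2 downward, with array B left out in 18 upward and 1 downward, and with the slide block in 4 and 1. Acta1, the muscle actin, was at -0.04, 0.80 and 0.12 at 4 weeks and at 5.21, 1.02 and 7.45 at 8 weeks, and Tcap, a protein of the sarcomere, at -4.25, -4.32 and -4.51 and then at 2.94, -4.04 and 5.50. Both were high on arrays A and C. Ttn and Eno3 of the same list were also higher on array B than at 4 weeks. Ttn, not well above background at 4 weeks, went from -8.11, -6.91 and -7.75 to -0.69, -3.45 and 1.90. Eno3 went from 0.71, 1.18 and 0.93 to 3.69, 2.60 and 5.79. Muscle RNA was also present outside 8 weeks, since the list median was 4.61 on 1 irradiated and 5.41 on 1 sham array of 2 weeks relative to the irradiated 4-week mean, and 14 of 24 genes rose in sham mice. None of the 21 T lymphocyte, 15 B lymphocyte and 9 MHC class II genes passed in irradiated mice, where high levels were found on array B alone. With B left out, 4 T lymphocyte genes rose and 2 fell, 3 B lymphocyte genes rose and 2 fell, and 1 MHC class II gene rose.

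Beyond the lists, the largest differences among probes that the array classes as coding included small nuclear and nucleolar RNAs. Snora47, a small nucleolar RNA, was at -0.55, -0.78 and -0.32 at 4 weeks and at -3.63, -4.46 and -3.79 at 8 weeks, a fall of 3.41 (adjusted p 0.0456). Rnu1b6, a U1 spliceosomal RNA gene of which the genome holds near-identical copies, was at 4.94, 4.99 and 4.87 and then at 2.09, 2.60 and 1.92, a fall of 2.73 (adjusted p 0.0456). The groups were far apart in both, and the sham falls were of like size, 3.42 and 2.81. St6galnac1, a sialyltransferase, was at 5.63, 4.87 and 5.30 and then at 2.99, 2.42 and 2.90, a fall of 2.50 (adjusted p 0.0456), and fell by 2.90 in sham mice. The other St6galnac1 probe differed by -0.82 in irradiated mice. Tmem151b was not well above background at 4 weeks and at least 9.94-fold higher at 8 weeks, and Ccdc172 and Slc25a41 were not well above background at 8 weeks and at least 4.12-fold and 3.38-fold lower. After normexp, which compresses dim signals, the log2 differences of these 3 genes were 1.09, -0.75 and -0.64, smaller than those bounds. The other Ccdc172 probe differed by only -0.09, so that the bound holds for 1 probe of that gene.

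Of 16 lncRNAs known by name, 1 rose and 5 fell, with a median of -0.50 (-0.37 relative to all genes). Kcnq1ot1, the antisense transcript that silences an imprinted cluster, was measured at chr7:150440140-150440199 (mm9). Its levels were 1.43, 1.26 and 0.90 at 4 weeks and -1.46, -1.65 and -0.76 at 8 weeks, a fall of 2.49 (adjusted p 0.0463). Airn, the silencer of another imprinted cluster, measured at chr17:12944784-12944843 (mm9), was at 2.64, 2.65 and 2.24 and then at 0.29, -0.32 and 0.56, a fall of 2.33 (adjusted p 0.0463). The 3 other Airn probes differed by -1.61 to -0.66. The weeks were clearly apart for both transcripts. Both also fell in sham mice, by 2.50 and 2.81.

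Xist, which coats the inactive X chromosome, went from 1.55, 1.22 and 1.1 to 0.52, -0.05 and 0.56, a fall of 0.94, against a sham fall of 1.34. Neat1, the scaffold of nuclear paraspeckles, fell by 0.77 and Dleu2 by 0.65. Malat1, an abundant nuclear RNA, went the other way, from 0.74, 0.58 and 1.06 to 2.04, 1.71 and 1.81, a rise of 1.06. Without array B 2 of the 16 rose and 5 fell, and with the slide block 1 rose and 3 fell.

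Over all lncRNA probes the median difference was -0.48 and 83.8% were lower at 8 weeks, against -0.16 and 63.0% for coding probes. Among probes well above background on all 6 arrays, 119 of 7323 lncRNA probes rose and 2671 fell (median -0.52), and 1479 of 26908 coding probes rose and 3601 fell (median -0.11). Fewer lncRNA probes were detected on arrays B and C, 49.4% and 54.4%, than on A, 60.6%, or at 4 weeks, 59.8% to 62.2%. Coding probes showed a smaller spread, 72.3% to 77.6%. Their part in the lncRNA falls was not tested.

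Brightness and scaling moved the size of the lncRNA shift and not its sign. From the dimmest to the brightest of 5 classes, the lncRNA medians were -0.44, -0.59, -0.50, -0.33 and -0.34 with the 75th percentile. They were -0.37, -0.43, -0.43, -0.30 and -0.31 after normexp, and -0.08, -0.31, -0.39, -0.35 and -0.29 after quantile normalization. Coding medians in the 2 brightest classes were -0.01 and -0.05 with the 75th percentile.

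**Figure D4:**
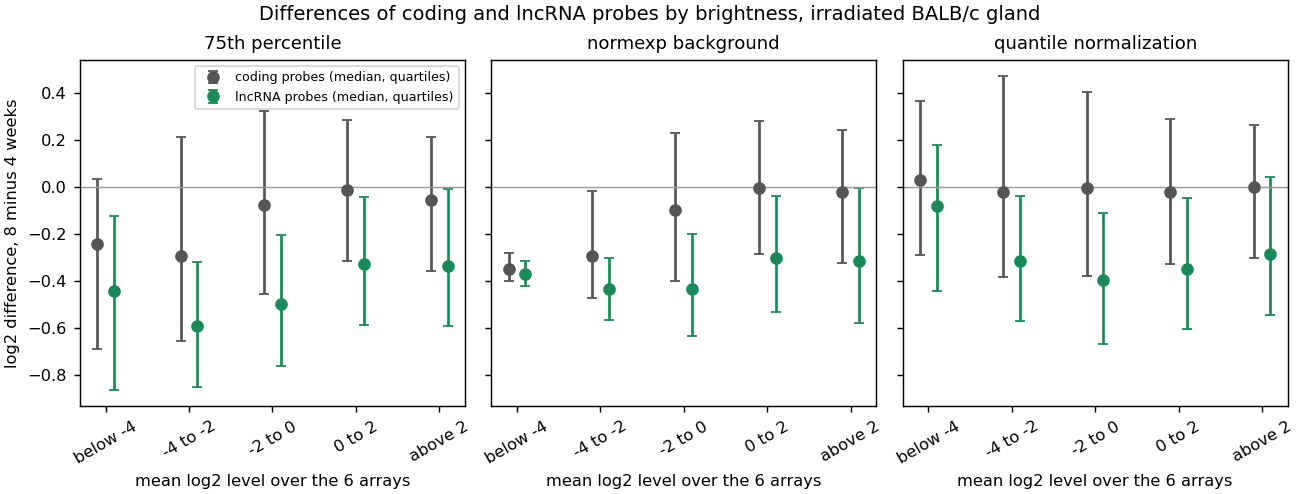
Median log2 difference, 8 minus 4 weeks, of coding and lncRNA probes (vertical axis, bars at the quartiles) in 5 classes of mean log2 level over the 6 irradiated arrays (horizontal axis), under 3 scalings. The lncRNA medians were below the coding medians in every class of every panel, and in the dimmest class they moved from -0.44 with the 75th percentile to -0.08 after quantile normalization.

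Of each lncRNA interval the probe of highest mean level was taken, and the 3 largest rises and 3 largest falls among those past the thresholds, above background on all 6 arrays and not overlapping between the weeks are printed as the 60-base probe sequences on the array, since these transcripts have no other name than their mm9 interval and strand (F or R). Capitals mark bases shared in runs of at least 20 with another probe on the array. The probes match, in this order, chr5:15168445-15168504 and chr5:14944100-14944159 on the plus strand, chr11:3539483-3539542 on the plus strand, chr2:128211991-128212050 and chr5:152006609-152006668 on the minus strand and chr3:85783349-85783408 on the plus strand.
chr5:15146475-15170100_F: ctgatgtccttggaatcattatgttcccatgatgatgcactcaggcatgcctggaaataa
chr5:14943275-14944205_F: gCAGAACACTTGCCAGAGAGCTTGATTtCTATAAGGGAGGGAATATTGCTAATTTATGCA
chr11:3521324-3539552_F: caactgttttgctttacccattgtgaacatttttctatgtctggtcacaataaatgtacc
chr2:128211990-128215223_R: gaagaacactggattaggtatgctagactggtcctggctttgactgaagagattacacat
chr5:152006587-152008784_R: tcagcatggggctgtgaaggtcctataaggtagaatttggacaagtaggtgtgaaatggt
chr3:85783094-85783408_F: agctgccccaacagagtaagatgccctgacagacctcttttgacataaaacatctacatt
The first was at -3.18, -0.68 and -2.99 at 4 weeks and at 0.82, 0.84 and -0.21 at 8 weeks, a rise of 2.77 (adjusted p 0.0990), and 3 other probes of the same interval differed by 2.00 to 2.70. The second, whose probe shares 58 of 60 bases with one of those, went from -3.08, -0.57 and -2.72 to 0.86, 1.13 and -0.26, so that these 2 transcripts may not be separate measurements. The third rose by 1.94, from -5.19, -4.38 and -5.00 to -2.26, -3.84 and -2.67, and 2 other probes of its interval differed by 1.85 and 2.39. In each of these the 4-week array B was the highest of its group.

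The 3 that fell were higher at 4 weeks on every array. The transcript on chromosome 2 was at 1.51, -0.30 and 1.94 and then at -2.06, -2.32 and -2.08, a fall of 3.20. That on the minus strand of chromosome 5 was at 0.64, 1.34 and 1.12 and then at -1.62, -3.15 and -1.66, a fall of 3.17. That on chromosome 3 was at 1.40, 0.40 and 0.69 and then at -1.84, -2.80 and -1.62, a fall of 2.92 with an adjusted p of 0.0489. Other probes of the 3 intervals differed by -3.68 and -3.49, by -3.06 and -3.04, and by -3.13 and -2.98. The sham differences of the 6 transcripts, in the order printed, were 2.42, 2.54, 0.59, -2.31, -2.86 and -2.52, all of the same sign as in irradiated mice.

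The change of sham mice over the same weeks, shares no array with the irradiated one. It passed the thresholds at 7660 of 55681 probes (13.8%), and no probe had an adjusted p under 0.05 (7891 had an unadjusted p under 0.05). Over the 32397 probes above background on all 12 arrays, the irradiated and sham differences correlated at 0.747, as a description across probes that share arrays and are not independent. Of 7367 such probes past the thresholds in irradiated mice, 6526 (88.6%) had the same sign in sham mice. Of the 3794 past the thresholds in both, 3733 had the same sign.

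The median difference of all probes was 0.05 in sham mice against -0.24 in irradiated mice. The difference between the time changes passed the thresholds at 2335 probes (4.19%), 246 higher and 2089 lower in irradiated mice, and had a median of -0.21. At gene level 130 were higher (0.582%) and 680 lower (3.05%). Against these shares, the gene lists with the most members past that test were the immediate early list upward and the interferon and macrophage lists downward, as described above. Under the slide block 737 probes passed, 393 of them higher. At gene level 162 were then higher and 126 lower, against 479 and 614 without array B. The slide that held the irradiated 4-week arrays also held the 3 sham arrays of 8 weeks and 1 of the 4-week sham arrays, and the other 2 sham 4-week arrays were on another slide.

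**Figure D5:**
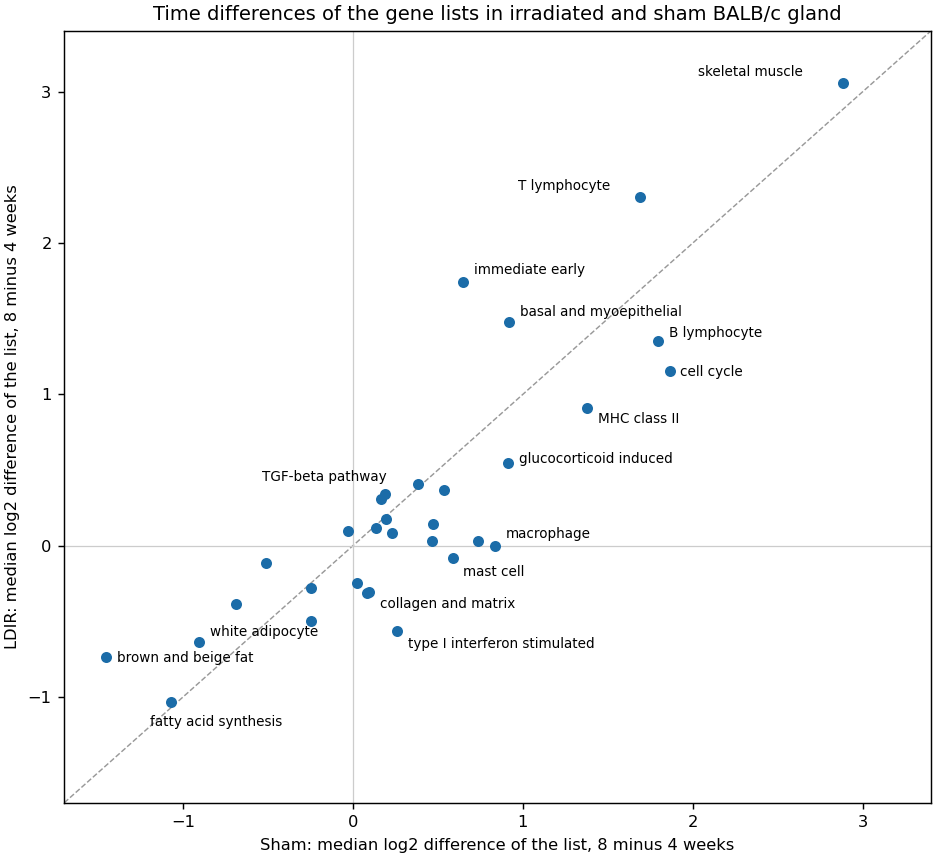
Median log2 difference, 8 minus 4 weeks, of each gene list in irradiated (LDIR, vertical axis) against sham (horizontal axis) BALB/c gland, with a dashed line where both are equal. The immediate early list lay above the line (1.75 against 0.65), and the interferon list (-0.57 against 0.26), the macrophage list (-0.00 against 0.84) and the cell cycle list (1.16 against 1.86) lay below it.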

How the data were processed

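Total RNA of mouse mammary tissue was hybridised to 1-colour Agilent arrays, and the authors deposited the processed signal intensity of each spot from Agilent Feature Extraction 10.10.1.1, background-subtracted by that program, and a table of log2 values that the authors normalized in GeneSpring GX. Here the log2 of the deposited intensity minus each array's 75th percentile was used, as in the study's methods. The deposited log2 table differed from it by at most 0.01 for 99.8% of values after centring of probes and arrays, so its direction is known. Control spots and 3777 outlier spots over the 24 arrays were left out, spots of a probe were averaged, and 55681 probes (39430 coding, 16251 lncRNA) remained with no filter on low values. For 1 probe no test could be made on the irradiated arrays. Gene symbols were updated through RefSeq for 31376 coding probes of 22328 genes, with the probe of highest mean per gene. Other probes of a gene could differ and are given for some genes only. The number of arrays limits the precision.

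Groups were tested with limma 3.58.1 (lmFit and eBayes, R 4.3.3). The difference between irradiated and sham time changes was an interaction term over 12 arrays. Probes at background throughout one group were given a bound, computed from the lowest signal among probes above background on each array. The members and the 32 gene lists (600 of 606 distinct genes measured) were chosen with earlier results of these data known, so list counts are descriptions. The 104 named genes were the 8 largest rises and falls among coding genes past the thresholds, above background on all 6 arrays and with groups that did not overlap, 3 lncRNAs in each direction by the same conditions, the 2 highest bounds in each direction, up to 3 members per list by smallest p, and a fixed set. Other list members in the text were chosen after their values were seen, and a few members that are counted are not reported by name here. As alternatives, the background was corrected with normexp (offset 50), the arrays were quantile-normalized, the table of the authors was taken, outliers were retained, dim probes were dropped, and the t-test of the methods was run. The slide or the replicate letter was fitted as a block, the fit was widened to 24 arrays, and arrays were left out singly. Counts of list members without an array or with slide as a block, and the slide block over all 24 arrays, were added after seeing the data. Promoter and probe sequences came from RefSeq (GRCm38.p6) and the array design (mm9), and figures from matplotlib 3.10.9 in Python 3.11.15. The limma test between the irradiated groups was also run on simulated arrays with known changes.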

Additional observations from a re-analysis of the deposited data

Results flagged for a closer look

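For 16 of the named genes the change from 4 to 8 weeks differed between irradiated and sham mice past the thresholds, 8 of them higher and 8 lower in irradiated mice. All of these had an adjusted p of 0.987 and an unadjusted p under 0.05, and no explanation was tested. The difference between the time changes, irradiated minus sham, was higher for the immediate early genes Fosb (3.08), Atf3 (2.97), Nr4a1 (2.60), Btg2 (1.61) and Ier2 (1.56), for the endothelial genes Apold1 (2.26) and Cldn5 (1.31) and for the chemokine Cxcl2 (1.21). It was lower for the interferon-stimulated genes Oas1a (-1.44) and Ifit3 (-1.41), for the macrophage genes C1qc (-1.28), Mrc1 (-1.06) and Fcgr1 (-1.05), for the chemokine Ccl9 (-1.79), for Sprr1a (-3.56), a protein of the cornified cell envelope, and for the olfactory receptor gene Olfr978 (-0.99). With slide as a block all 16, which had been selected on the same arrays, kept their direction. Of them 9 stayed past the thresholds, with differences of 5.34 for Fosb, 5.04 for Atf3, 3.86 for Nr4a1 and -1.47 for Oas1a. Those that did not pass with the block included Ifit3 (-0.95), Mrc1 (-0.52) and C1qc (-1.05).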

How the results depend on the processing

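Of the 99 named genes past the thresholds, all 99 kept their direction with slide as a block and without 8-week array B, and 54 and 83 of them passed there. They had been selected on the same arrays, so that a kept direction is no independent support. The counts moved as follows (coding, lncRNA and adjusted, against 7295, 4829 and 296). Normexp gave 3663, 1746 and 24959, slide as a block 3229, 2273 and 0, and that block over all 24 arrays 2777, 1773 and 93. Quantile normalization gave 2683 lncRNA probes and 2 adjusted ones, and the adjusted count was 137 from the authors' values, 524 for detected probes, 21 by the methods' t-test and 3878 in one fit of 24 arrays. With each array left out in turn, coding probes ran from 4883 to 8612, lncRNA probes from 3449 to 5356 and adjusted ones from 0 to 965, the last without 8-week array B and 0 in every other case. The difference from sham, 2335 probes, became 699 with normexp, 1530 for detected probes, 737 with slide as a block and 952 with that block over 24 arrays, and ran from 1363 (without sham 4-week array B) to 4059 (without sham 4-week array C), with 1510 without irradiated 4-week array C and 3526 without 8-week array A. The methods' t-test has no such term. The causes were not tested, apart from the fewer probes tested for the detected set.

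The replicate letters gave no pairing, since same-letter arrays had correlated deviations of -0.10, -0.01 and 0.00. As a block they left 6592 coding and 4368 lncRNA probes, 0 adjusted (10960 at an unadjusted p under 0.05 by limma), and 2306 for the difference from sham. Direction reversed for 3 genes that did not pass the thresholds. S100g went from -0.47 to 1.23 with slide as a block, alone or over 24 arrays, and ran from -1.32 to 0.58 (without 8-week array B) with arrays left out. Adipoq went from -0.36 to 0.033 with either slide block and ran from -0.69 to 0.10 (without 8-week array B). Prkdc went from 0.01 to -0.019 with normexp and -0.21 with either slide block, and was -0.034, -0.039 and -0.15 without 4-week arrays A and C and 8-week array B, in a range up to 0.12.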

Other observations

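Several lists not described above had few members past the thresholds in irradiated gland, where 5.23% of all genes rose and 11.3% fell. In the plasma cell list 2 of 10 genes rose, Jchain (1.77), which joins immunoglobulin chains, and Derl3 (1.30), and in the Schwann cell list 2 of 12 rose and 1 fell, with Sox10 at 1.46 and S100b at -1.01. Without array B 1 plasma cell gene rose, and 2 Schwann cell genes rose and 1 fell. With slide as a block no plasma cell gene passed and 1 Schwann cell gene rose. Of 20 clock genes 1 rose (Arntl, 1.26), while 5 rose without array B, Arntl not among them, and 0 with the slide block. Respiratory chain genes had 3 falls of 22 (Ndufa4, Cox4i1 and Cox7c), and of 15 genes of brown and beige fat 1 fell (Otop1, -2.20, and -0.46 at its other probe), against 10 in sham mice. Without array B 1 respiratory chain gene rose and 1 fell, and 1 gene of brown and beige fat rose and 0 fell. With the slide block no respiratory chain gene passed, and 1 gene of brown and beige fat rose and 0 fell. Of 19 cornified epidermis genes 3 fell (Sprr1a, Sprr2d and Krtdap), 1 of 18 heat shock genes fell (Hsp90b1, -0.65) and 1 of 19 antioxidant genes fell (Gpx4, -0.78). Without array B, cornified epidermis genes had 1 rise and 2 falls, heat shock genes 3 rises and 1 fall, and no antioxidant gene passed. With the slide block 1 antioxidant gene rose, and no other gene of these lists passed. No erythrocyte (9) or mast cell (11) gene passed, while 1 and 2 rose without array B and none with the slide block. Ido1, a tryptophan-degrading enzyme, differed by -1.96 (unadjusted p 0.227 by limma).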
